A study of Homo sapiens with 16 samples.

Results

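A set of 10 genes, most of them known to restrain NF-kB signalling, was followed through tumour necrosis factor (TNF) stimulation of colon cancer cells: TNFAIP3 (A20), TNIP1, TNIP2, CYLD, ZC3H12A, TNFAIP8, TNFAIP2, TAX1BP1, ITCH and SBNO2. They were taken by symbol, with earlier results of these data known, and are 10 of the 28502 symbols listed. The study examined gene expression and histone H3 lysine 27 methylation in HCT116, an established human colorectal carcinoma cell line, after knockdown of EZH1, a histone H3 lysine 27 methyltransferase, or UXT, a small prefoldin-like protein. The 6 RNA-seq libraries cover 3 transfections, NC, siEZH1 and siUXT, each with PBS or with TNF, and there is 1 library per condition; the 10 chromatin samples were not analysed here. The labels give PBS and TNF as the treatment and small interfering RNA as the knockdown method. The sources used here do not give what NC stands for, how much TNF was added and for how long, or how many small interfering RNAs were used per target.

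TNF binds its receptor and assembles a complex whose ubiquitin chains recruit the kinases that release NF-kB. Several brakes act on those chains or on what follows: A20 edits and binds ubiquitin with the help of TAX1BP1 and the ligase ITCH, TNIP1 and TNIP2 (ABIN proteins) bind A20 and ubiquitin, and CYLD removes ubiquitin chains. ZC3H12A (Regnase-1) is an RNase that cuts inflammatory mRNAs, and SBNO2 is a nuclear co-regulator first placed downstream of interleukin 10. TNFAIP2 and TNFAIP8 carry names that record induction by TNF, and neither is an A20 subunit.

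The promoters are shown first because NF-kB binds DNA of a known form and because the genes below differ in how they behaved with TNF. RefSeq promoter windows of 300 bases (250 before and 50 after an annotated start, GRCh38.p14) were given for all 10 genes, 17 windows in all, and were searched on both strands for the kB consensus. The consensus was found in 4 of these windows, belonging to TNFAIP3, TNIP1 and CYLD, so in 3 of 10 genes; over all genes with a window it was found in 13.3% (11.3% of 35116 windows). Each of the 3 genes holds the same 10 bases, GGGACTTTCC, on one strand or the other; this string, chosen after the matches were seen, occurs in 67 of all windows, 0.191%. The stretches below are 100 bases long, read 5′ to 3′ on the gene's strand, with capitals marking matches to the consensus; GGAAAGTCCC is the reverse complement of the shared string.
TNFAIP3: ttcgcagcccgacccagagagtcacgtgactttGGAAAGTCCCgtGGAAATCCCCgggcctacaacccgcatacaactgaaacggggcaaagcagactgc
TNIP1: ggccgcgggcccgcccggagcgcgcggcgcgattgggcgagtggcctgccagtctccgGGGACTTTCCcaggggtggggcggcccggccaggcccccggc
CYLD: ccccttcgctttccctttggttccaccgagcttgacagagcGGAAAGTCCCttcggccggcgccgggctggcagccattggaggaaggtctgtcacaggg
TNFAIP2: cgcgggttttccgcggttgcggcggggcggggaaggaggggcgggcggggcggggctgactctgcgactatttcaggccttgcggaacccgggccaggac
The TNFAIP3 stretch lies at chr6:137867159-137867258 on the plus strand and carries 2 matches, at -67 to -58 and -55 to -46 from the start, where 0 is the first transcribed base. The TNIP1 stretch lies at chr5:151081035-151081134 on the minus strand, with its match at -42 to -33. The CYLD stretch lies at chr16:50741856-50741955 on the plus strand, with its match at -189 to -180, and the window of another CYLD start holds one further match at its first transcribed bases. TNFAIP2 is shown as a gene that responded strongly to TNF yet has no match; its stretch lies at chr14:103123361-103123460 on the plus strand. No match was found in the windows of ZC3H12A and SBNO2 either, nor in those of TNIP2, TNFAIP8, TAX1BP1 and ITCH, which says only that these letters are not in these windows.

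All levels are FPKM as deposited, a fragment count scaled by transcript length and library size. Read numbers are unknown; from the steps between low values, depth relative to NC PBS was 0.719 in NC TNF, 0.720 in siEZH1 TNF and 0.95 to 1.02 in the others. Of the targeted genes, UXT was at 27.7 and 24.6 FPKM in the siUXT libraries (PBS, then TNF) against 62.2 and 59.6 in NC. EZH1 was at 4.05 and 4.14 FPKM in siEZH1 against 5.45 and 5.12 in NC, a ratio of 0.742 and 0.809; the siEZH1 difference did not pass the test described next (limma adjusted p = 0.643), nor did that of UXT in siUXT (adjusted p = 0.689, unadjusted p = 0.000465), which was called without siUXT PBS (adjusted p = 0.0261). The 8 colon epithelial markers summed to 1761 to 2589 FPKM per library, with 6 of 8 at a mean of at least 1 FPKM (all but LGALS4 and VIL1). Leukocyte markers summed to 0.161 to 0.850 (PTPRC, CD3E and CD14 at 0) and endothelial markers to 0.0943 to 0.257. Fibroblast markers summed to 5.19 to 8.50. Of these, DCN and LUM were at 0, and only COL1A1 had a mean of at least 1 FPKM, reaching 8.26. The siUXT PBS library stood apart: 10.4% of tested loci were at least 2-fold lower there than in NC PBS. At a looser limit of 1.5-fold, 8.49% were lower in siEZH1 PBS and 9.34% in siEZH1 TNF. In siUXT TNF 5.38% were, each against NC of the same treatment.

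Of the 10 genes, TNFAIP3, which encodes A20, rose most with TNF. TNFAIP3 measured 1.07 FPKM with PBS and 37.0 with TNF in NC, 1.22 and 35.8 in siEZH1, and 0.916 and 28.9 in siUXT. It was the least expressed of the 10 in every PBS library and stood at rank 2, 2 and 3 among them with TNF in NC, siEZH1 and siUXT. No TNF library came near a PBS library, though bulk RNA cannot tell more responding cells from more RNA per cell. TNF over PBS gave ratios of 34.6, 29.3 and 31.6 for NC, siEZH1 and siUXT. The mean change was 4.07 ± 0.12 on the log2(FPKM + 1) scale (SD, n = 3 transfections), and it passed the test over all loci (limma, adjusted p = 0.000313). That test asks whether the TNF effect, averaged over the 3 transfections with transfection as a term, exceeds the disagreement between them; a gene is called at a Benjamini-Hochberg adjusted p under 0.05 over the 11845 loci whose mean reached 1 FPKM. All 10 genes met that minimum. The log2(FPKM + 1) scale understates the change of genes with low FPKM, and TNFAIP3 with PBS is one.

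TNFAIP2, a protein related to the exocyst subunit EXOC3 and linked to membrane protrusions, was the most abundant of the 10 in every library. Its values were 35.6 FPKM with PBS and 605 with TNF in NC, 26.1 and 366 in siEZH1, and 37.6 and 324 in siUXT. All TNF libraries stood far above all PBS libraries, and among the TNF libraries NC was the highest. It rose 17.0-fold, 14.0-fold and 8.62-fold, a mean of 3.63 ± 0.50 (log2 change, SD, n = 3; limma adjusted p = 0.00131). Its share of the summed FPKM of the 10 genes was 26.6%, 22.0% and 27.5% in the NC, siEZH1 and siUXT PBS libraries and 76.7%, 68.9% and 64.4% with TNF. The listed value of TNFAIP2 is identical to that of 1 other symbol in all 6 libraries, so it cannot be assigned to TNFAIP2 alone.

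SBNO2 was also called. It measured 12.2 FPKM with PBS and 32.2 with TNF in NC, 7.28 and 19.1 in siEZH1, and 11.5 and 24.3 in siUXT. The lowest TNF library, siEZH1, was still above the highest PBS library, NC. It rose 2.65-fold, 2.62-fold and 2.12-fold, a mean of 1.21 ± 0.17 (log2 change, SD, n = 3; limma adjusted p = 0.0431). This call lies close to the threshold: the adjusted p was 0.146 with no filter on low values, 0.162 without transfection as a term, and 0.0504 to 0.0694 when any one NC or siEZH1 library was left out.

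**Figure D1:**
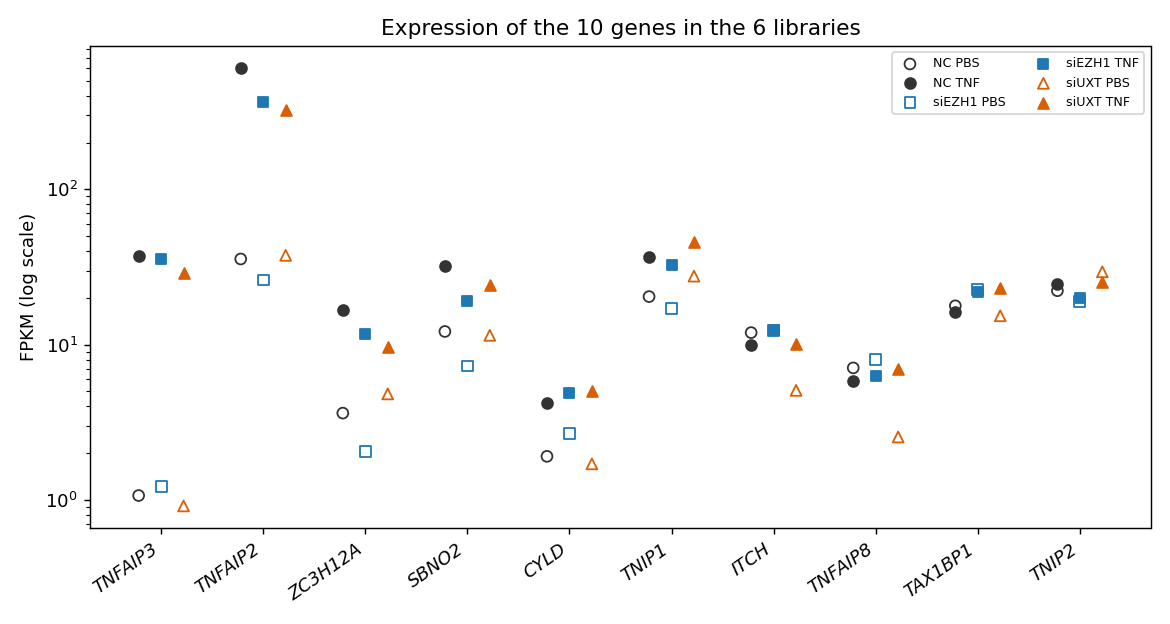
FPKM (log axis) of the 10 genes in the 6 libraries; open symbols are PBS, filled symbols TNF, and shape and colour mark the transfection. For the 6 genes on the left, all 3 TNF libraries lie above all 3 PBS libraries; for the other 4 they overlap.

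In all, 3 of the 10 genes were called for TNF, TNFAIP3, TNFAIP2 and SBNO2, all upward, where 0.405% of tested loci were called up. TNIP1, CYLD and ZC3H12A were not called, though all their TNF libraries lay above all their PBS libraries. That separation was seen in 6 of 10 genes and in 3.47% of tested loci. Unadjusted p was under 0.05 for the same 6 genes, where 2.92% of tested loci had such a p with a higher level.

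ZC3H12A, the Regnase-1 RNase, measured 3.63 FPKM with PBS and 16.8 with TNF in NC, 2.04 and 11.7 in siEZH1, and 4.82 and 9.63 in siUXT. The siUXT pair had both the highest PBS value and the lowest TNF value. Its TNF to PBS ratios were 4.63, 5.75 and 2.0 for NC, siEZH1 and siUXT, and the mean log2 change of 1.63 ± 0.66 (SD, n = 3) did not pass the test (limma adjusted p = 0.106). It was called whenever 1 library or 1 transfection's pair was left out, whichever it was. The adjusted p was then 0.000570 to 0.00909 and the log2 change 1.41 to 2.0 (limma). Those fits are not independent checks, because leaving out either library of a pair, or both, gave the same log2 change. They called 126 to 328 loci for TNF, against 49 with all libraries.

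TNIP1, the A20-binding protein ABIN1, measured 20.4 FPKM with PBS and 36.7 with TNF in NC, 17.1 and 32.7 in siEZH1, and 27.6 and 45.7 in siUXT. The siUXT pair was the highest under either treatment. The TNF to PBS ratios of 1.80, 1.91 and 1.65 lay close together, and the mean log2 change was 0.81 ± 0.10 (SD, n = 3; limma adjusted p = 0.144). Its partner A20 stood at 0.0524, 0.0715 and 0.0332 times the TNIP1 level in the NC, siEZH1 and siUXT PBS libraries, and at 1.01, 1.09 and 0.633 times with TNF. These ratios compare FPKM, a level per transcript length, between 2 genes of the same library.

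CYLD, the deubiquitinase, had the lowest level of the 10 in each TNF library. It measured 1.91 FPKM with PBS and 4.20 with TNF in NC, 2.67 and 4.92 in siEZH1, and 1.71 and 5.04 in siUXT. The TNF values were closer to each other than the PBS values. The ratio was 2.20, 1.84 and 2.95, and the mean log2 change of 0.89 ± 0.24 (SD, n = 3) did not pass (limma adjusted p = 0.203).

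The remaining A20 partners had levels that overlapped between treatments. TNIP2 (ABIN2), which also stabilises the kinase TPL2, measured 22.2 FPKM with PBS and 24.4 with TNF in NC, 18.9 and 19.8 in siEZH1, and 29.4 and 25.4 in siUXT. It was slightly higher with TNF in NC and siEZH1 and lower in siUXT, for a mean log2 change of -0.00 ± 0.18 (SD, n = 3; limma adjusted p = 0.999). TAX1BP1, the ubiquitin-binding adaptor of A20, measured 17.8 and 16.2 FPKM in NC, 22.6 and 21.9 in siEZH1, and 15.3 and 23.2 in siUXT, PBS then TNF. The siUXT PBS library was the lowest of the 6 and the siUXT TNF library the highest. ITCH, the HECT-type ubiquitin ligase, measured 12.0 and 9.97 FPKM in NC, 12.4 and 12.4 in siEZH1, and 5.08 and 10.1 in siUXT. Here 5 libraries lay between 9.97 and 12.4 FPKM, and siUXT PBS lay apart below them. Mean log2 changes were 0.13 ± 0.38 for TAX1BP1 and 0.21 ± 0.58 for ITCH (SD, n = 3; limma adjusted p = 0.999 for each).

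TNFAIP8, a lipid-binding protein named for induction by TNF, also had its lowest value in siUXT PBS. It measured 7.09 FPKM with PBS and 5.80 with TNF in NC, 7.98 and 6.27 in siEZH1, and 2.54 and 7.0 in siUXT. With TNF it was lower than with PBS in NC and siEZH1 (ratios of 0.819 and 0.786) and higher in siUXT (2.75). The mean log2 change was 0.21 ± 0.84 (SD, n = 3; limma adjusted p = 0.999).

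**Figure D2:**
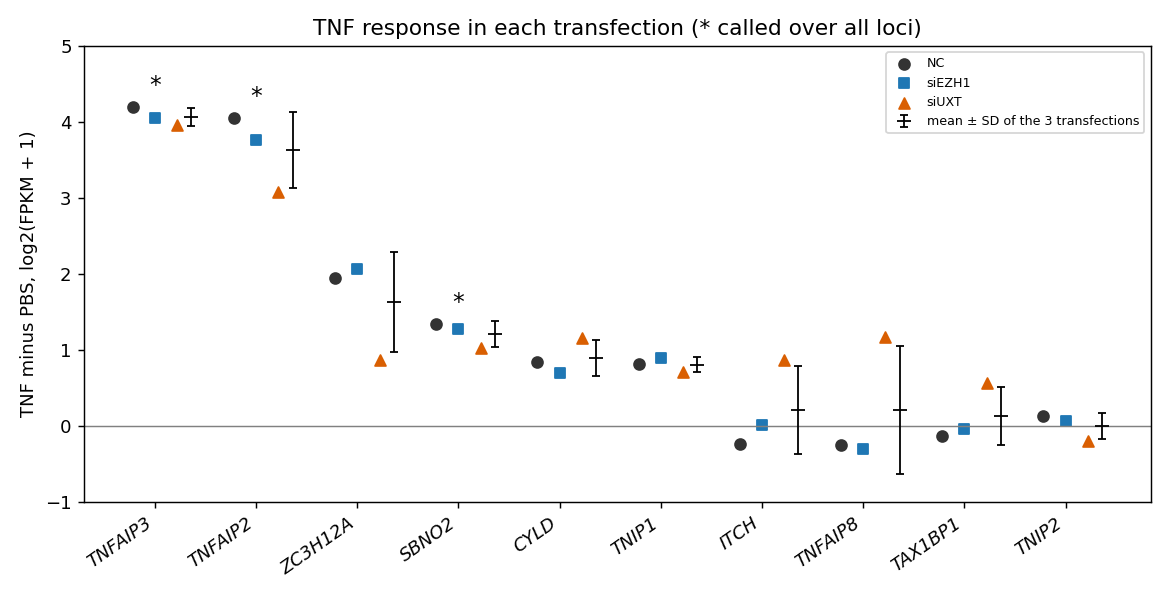
TNF minus PBS on the log2(FPKM + 1) scale for each gene in NC, siEZH1 and siUXT, with the mean ± SD of the 3 transfections in black; an asterisk marks a gene called over all loci. TNFAIP3 lies near 4.07 in every transfection, while ZC3H12A, ITCH, TNFAIP8 and TAX1BP1 are spread by the siUXT pair.

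Which genes were called for TNF depended on the libraries fitted. With siUXT PBS left out, 6 of 10 genes were called, adding TNIP1 (log2 change 0.86, limma adjusted p = 0.00315), CYLD (0.76, adjusted p = 0.0440) and ZC3H12A (2.0, adjusted p = 0.000570), where 2.47% of tested loci were called up. Leaving out siUXT TNF instead gave 5, without CYLD (0.76, adjusted p = 0.0520). With an NC or siEZH1 library or pair left out, the called genes were TNFAIP3, TNFAIP2 and ZC3H12A, without SBNO2. TNIP1 and CYLD were called only in fits that left out siUXT libraries. TNFAIP3 and TNFAIP2 were called in each of the alternatives run, with adjusted p of at most 0.00550 and 0.0213. For NC, siEZH1 and siUXT the median log2 change of the 10 genes was 0.83, 0.79 and 0.95, against -0.02, 0.01 and -0.05 over all tested loci.

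No gene of the 10 was called for siEZH1 against NC, where 0.0169% of tested loci were called, or for siUXT against NC, where 0.0422% were (limma). At an unadjusted p under 0.05 the counts were 1 gene of 10 for siEZH1 (SBNO2) and 0 for siUXT, and 972 and 432 over all loci. Both knockdowns are read against the same NC libraries, so their values are given side by side and not as independent of each other.

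SBNO2 was the only gene of the 10 at least 1.5-fold lower in siEZH1 under both treatments, at 0.599 times NC with PBS and 0.592 with TNF, where 4.19% of tested loci met that rule. The 2 siEZH1 values, 7.28 and 19.1 FPKM, were each the lowest of their treatment. Its siEZH1 effect was -0.70 ± 0.19 (log2 change, limma standard error; adjusted p = 0.602, unadjusted p = 0.00919). In siUXT the ratios were 0.944 and 0.756. ZC3H12A was at least 1.5-fold lower in siEZH1 with PBS only, at 0.563 times NC, and its ratio with TNF was 0.699. TNFAIP2 was so with TNF only, at 0.604, with a ratio of 0.733 with PBS. The rule took 8.49% of tested loci with PBS and 9.34% with TNF, and 2 of the 10 genes each time.

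Without siUXT PBS, siEZH1 calls were made for SBNO2 (limma adjusted p = 0.00810), TNFAIP2 (0.00977), ZC3H12A (0.0195) and TAX1BP1 (0.0237), the first 3 lower and TAX1BP1 higher, at 0.37 on the log2 scale. In that fit 26.4% of all tested loci were called, so 4 of 10 is read against that share. The same 4 were called without siUXT TNF and without both siUXT libraries, where 3089 and 3101 loci were called. For all 4 the log2 change was the one of the fit with all libraries. This was fixed by the design, because the siEZH1 estimate uses the NC and siEZH1 libraries alone. These fits are thus not independent checks of one another. A20 stood near its NC level in siEZH1: its ratio to NC was 1.15 with PBS and 0.969 with TNF, and its effect of 0.03 ± 0.19 (log2 change, limma standard error) was not called in any alternative run (adjusted p of at least 0.835).

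In siUXT the genes furthest from NC differed by treatment. With PBS these were TNFAIP8 at 0.359 times NC and ITCH at 0.425, the only 2 of 10 at least 2-fold lower, where 10.4% of tested loci were; the others stood at 0.857 or more. With TNF the same 2 genes were at 1.21 and 1.01 times NC. With TNF the genes at least 1.5-fold lower were TNFAIP2 at 0.535 and ZC3H12A at 0.574, 2 of 10 where 5.38% of tested loci were, and with PBS these were at 1.06 and 1.33 times NC. A20 stood at 0.857 and 0.782, TNIP1 at 1.35 and 1.24.

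**Figure D3:**
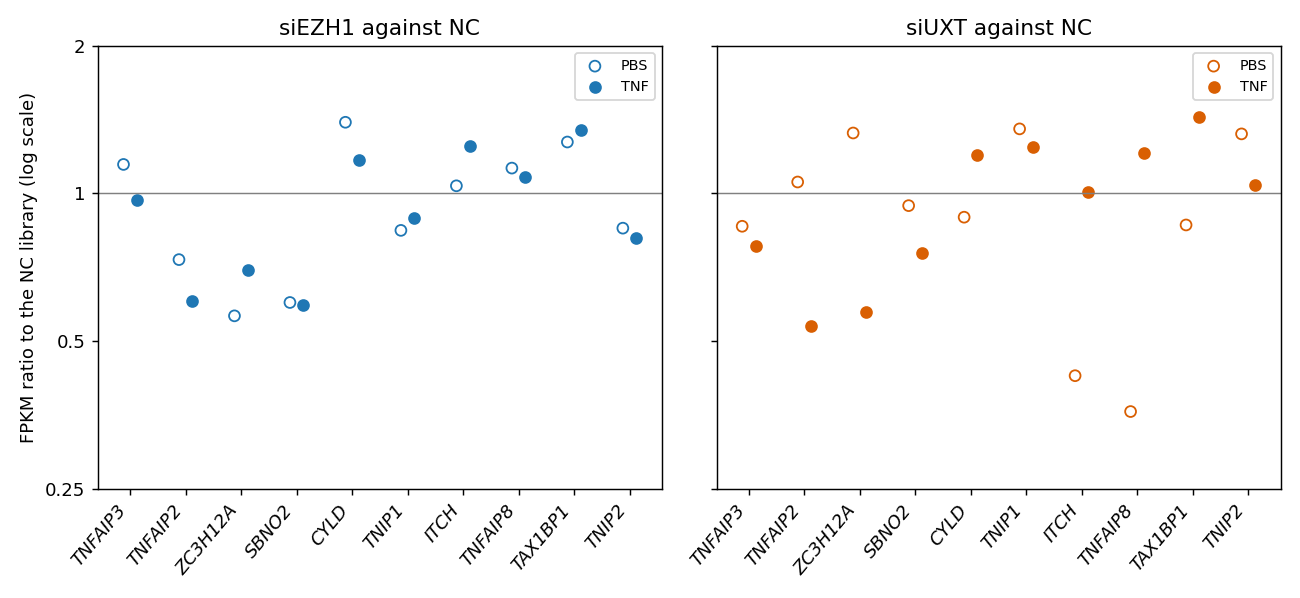
FPKM ratio of each knockdown library to the NC library of the same treatment (log axis, 1 library against 1, no error); open points are PBS and filled points TNF. SBNO2 lies at about 0.6 in siEZH1 under both treatments; in siUXT, TNFAIP8 and ITCH are low with PBS, and TNFAIP2 and ZC3H12A with TNF.

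The TNF response itself could be set side by side between transfections, with 1 pair each and no test. ZC3H12A responded by 1.94 in NC, 2.07 in siEZH1 and 0.87 in siUXT (log2 change), so siUXT was lower than NC by 1.07; a difference at least 1 lower was found in 1 of the 10 genes and 1.34% of tested loci. TNFAIP2 responded by 4.05, 3.76 and 3.07, a difference of -0.97 between siUXT and NC. In the other direction, TNFAIP8 differed by 1.42 and ITCH by 1.10, 2 of 10 genes at least 1 higher, where 10.1% of tested loci were. Both differences come with the low siUXT PBS values; the part of that library in them was not tested. A20 responded by 4.20, 4.05 and 3.96, which made its differences from NC -0.15 in siEZH1 and -0.23 in siUXT.

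Other brakes of the pathway, a list of 28 genes with 26 tested, had 3 called up with TNF and 0 called down. Over all tested loci 0.405% were called up. The 3 called brakes were NFKBIA, the inhibitor that holds NF-kB in the cytoplasm, NFKBIE, of the same family, and BCL3, a nuclear member of it. NFKBIA measured 26.9 and 379 FPKM in NC, 28.2 and 309 in siEZH1, and 22.8 and 261 in siUXT, a mean log2 change of 3.54 ± 0.20 (SD, n = 3; limma adjusted p = 0.000313). NFKBIE changed by 1.94 ± 0.29 (adjusted p = 0.00788) and BCL3 by 1.97 ± 0.66 (adjusted p = 0.0474), with n = 3 and limma. BCL3 lost its call with a pseudocount of 0.1, with size factors, with eBayes without trend and with no filter on low values. The list's median log2 change was 0.11, against 0.85 for the 10 genes and 0.01 over all tested loci. Without siUXT PBS 8 were called up, adding NFKBIB, SOCS1, TANK, TRAF3 and ZFP36, where 2.47% of tested loci were called up.

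The components on which A20 and CYLD act, 21 genes from the TNF receptor to the kinase complex, had 1 call, upward, where 0.405% of tested loci were called up. BIRC3 (cIAP2), a ubiquitin ligase of the receptor complex, measured 0.438 and 32.6 FPKM in NC, 0.432 and 36.7 in siEZH1, and 0.204 and 45.5 in siUXT, a mean log2 change of 4.85 ± 0.38 (SD, n = 3; limma adjusted p = 0.000313). BIRC3 was at 0.438 FPKM or less in every PBS library, so its mean reached 1 FPKM only through the TNF libraries. With no filter on low values BIRC3 was also called. Its paralogue BIRC2 measured 11.8 and 29.6, 14.0 and 38.3, and 4.38 and 36.8 FPKM. The BIRC2 change of 1.82 ± 0.86 (SD, n = 3) was not called (limma adjusted p = 0.133). BIRC2 was called whenever 1 library or 1 pair was left out, in fits that called 126 to 328 loci for TNF against 49 with all libraries. The list's median was 0.08. The receptor gene TNFRSF1A, the adaptor TRADD and the kinase RIPK1 had mean log2 changes of -0.13, 0.20 and -0.12 (chosen after their values were seen).

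Relatives of the 10 genes, with the 2 adaptors of ITCH, made a list of 30, of which 21 were tested and 0 were called for TNF (limma). At an unadjusted p under 0.05 in either direction there were 2. Over all tested loci only upward changes were counted at such a p, 2.92%. The largest mean changes were those of ZC3H12C at 0.95 ± 0.56 (SD, n = 3; limma adjusted p = 0.455) and NEDD4L at 0.48 ± 0.20 (adjusted p = 0.960, n = 3, limma). The A20-binding relative TNIP3 was listed at 0 in every library. SBNO1, the other strawberry-notch gene, measured 7.76 and 6.37 FPKM in NC, 9.59 and 10.5 in siEZH1 and 4.25 and 8.04 in siUXT, with levels that overlapped between treatments. Of 5 further TNF-related genes (TNFAIP1, TNFAIP6, TNFAIP8L1, TNFRSF9 and TNFSF15), 3 were tested and 1 was called. The called gene was the TNF receptor family member TNFRSF9 (4-1BB), at 2.11 ± 0.21 (log2 change, SD, n = 3, limma adjusted p = 0.00596). TNFRSF9 was at 0.0645 FPKM or less in every PBS library and at 2.88 to 3.85 with TNF. Its mean thus reached 1 FPKM only through the TNF libraries. It was also called with no filter on low values. TNFAIP1, an adaptor of a ubiquitin ligase, stood at 0.37 ± 0.17 (adjusted p = 0.999, n = 3, limma). In these lists 0 genes were called for either knockdown (limma). At an unadjusted p under 0.05 there were 3 of the other brakes and 1 of the receptor complex for siEZH1, and 1 of the relatives for siUXT. Over all 11845 tested loci 972 had such a p for siEZH1 and 432 for siUXT.

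**Figure D4:**
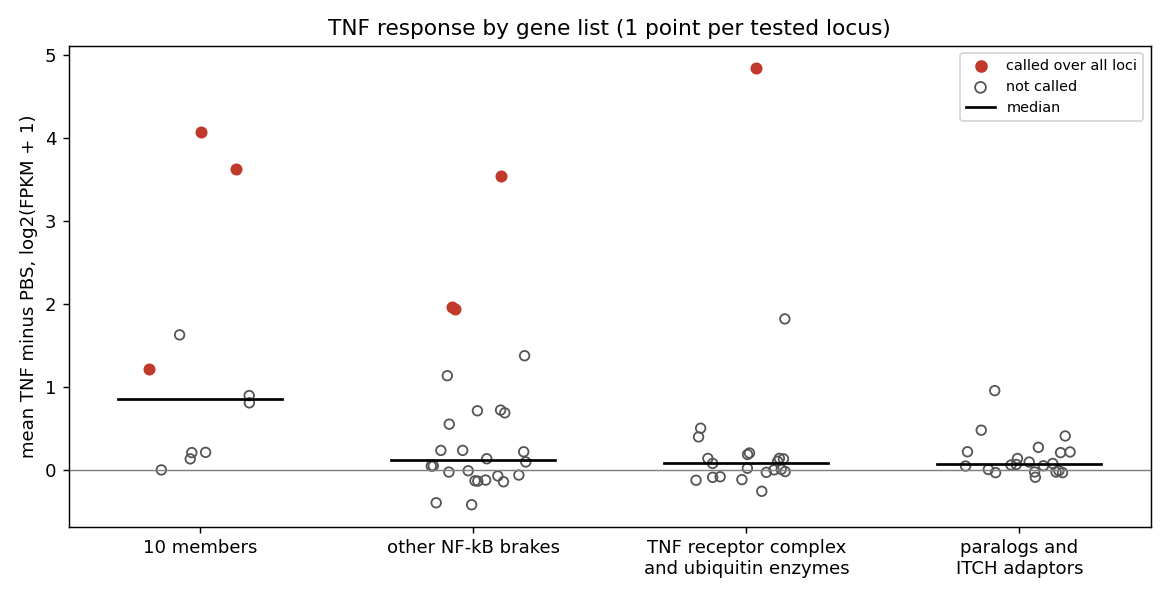
Mean TNF minus PBS on the log2(FPKM + 1) scale, 1 point per tested locus, for the 10 genes, the other NF-kB brakes, the TNF receptor complex and the paralogues; red points were called over all loci and bars are medians. Medians are 0.85 for the 10 genes and 0.11, 0.08 and 0.06 for the other lists.

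The genes most like each called gene over the 6 libraries were found by Pearson's correlation of log2(FPKM + 1), as a description of 6 points that share the 3 transfections and the TNF contrast. For TNFAIP3 they were NFKBIA (r = 0.999), TNFRSF9 (0.998) and IRF2 (0.997), and 67 loci exceeded 0.95. For TNFAIP2 they were ANKRD33B (0.999), CSF1 (0.998) and ELMSAN1 (0.997). ANKRD33B measured 2.11 and 14.9 FPKM in NC, 1.91 and 10.5 in siEZH1, and 2.31 and 10.3 in siUXT, with NC again the highest of the TNF libraries. For SBNO2 they were NINJ1 (0.993), TICAM1 (0.990) and TRIM47 (0.986). NINJ1 measured 31.9 and 103 FPKM in NC, 18.2 and 60.8 in siEZH1, and 35.2 and 69.1 in siUXT, and like SBNO2 it was lowest in siEZH1 under both treatments. Such shared features are not separate findings, as ANKRD33B and NINJ1 were chosen by correlation over the same 6 libraries.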

How the data were processed

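Poly(A) RNA-seq was made from 6 HCT116 libraries. The deposited values are FPKM per gene symbol, made by the authors; the submitters' processing notes name FastQC, cutadapt, TopHat2, Bowtie and SICER, and hg19. The sources used here give no versions, counting program, annotation or strand setting, so values of genes that overlap, lie antisense or have near copies are uncertain.

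Symbols whose values were the same in every library were treated as 1 locus, and a locus was tested when its mean reached 1 FPKM. Some list genes were thus tested as a locus shared with another gene, among them TNFAIP8L2, RNF31, TAB1 and UBE2V1. log2(FPKM + 1) was fitted with limma (version 3.58.1, R 4.3.3; lmFit, eBayes with trend, 2 residual degrees of freedom), with terms for treatment and transfection and Benjamini-Hochberg adjustment over 11845 loci. The code was tested on simulated data. p-values measure only the spread between these libraries, each the only one of its condition. Low values (under 0.4 FPKM) gave relative depth through their step ratio, with a tolerance of 2%.

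The genes, lists and tests were chosen with earlier results of these data known. The text names all 10 genes; of each list the loci called for TNF (up to 6 by size) or, where fewer than 2 were called, the 2 with the largest change; the 3 loci most correlated with each called gene; and genes at least 1.5-fold from NC the same way under both treatments. Others were named after their values were seen. Promoter windows are RefSeq's (GRCh38.p14) and were not joined to the deposited values by coordinate. Alternatives were a pseudocount of 0.1, no filter or a minimum of 5 FPKM, size factors, eBayes without trend, 1 factor alone, unmerged symbols, leaving out each library or pair, and a looser motif. The 10 chromatin samples were not analysed here.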

Additional observations from a re-analysis of the deposited data

Results flagged for a closer look

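Some genes moved with TNF in opposite directions in 2 transfections, each with 1 pair of libraries, and the difference was not tested. TNFAIP8 was lower with TNF in NC and higher in siUXT, a difference of 1.42 on the log2 scale. ITCH was lower with TNF in NC and higher in siUXT and siEZH1, differences of 1.10 and 0.25. TAX1BP1 was lower in NC and higher in siUXT, a difference of 0.70. TNIP2 was higher in NC and lower in siUXT, a difference of -0.33. ITCH in siEZH1 was close to 0, at 0.01. Of tested loci, 4.26% differed from NC at least as far from 0 as TNFAIP8, and 8.93% as far as ITCH in siUXT. The shares were 24.7% for TAX1BP1, 29.3% for ITCH in siEZH1 and 62.6% for TNIP2. How many of all tested loci moved in opposite directions was not counted. TNFAIP8, ITCH and TAX1BP1 each had their lowest value in the siUXT PBS library, whose part in this was not tested.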

How the results depend on the processing

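With 1 library per condition, errors in the main fit rest on 2 residual degrees of freedom and on a variance shared over all loci, worth 4.42 prior degrees of freedom. No difference between responses can be tested. Genes called for TNF numbered 3, 2 with no filter or with 1 factor alone (SBNO2 lost), and 3 to 6 with a library or pair left out, where ZC3H12A took the place of SBNO2 without NC or siEZH1 libraries; all loci called numbered 49, 23 with no filter and 126 to 328 with libraries left out. Loci called for siEZH1 numbered 2, 1 with a minimum of 5 FPKM and 42 to 3132 with libraries left out, and genes of the 10 called 0 to 4. Loci called for siUXT numbered 5, 0 with a pseudocount of 0.1 and 1 with a minimum of 5 FPKM. With libraries left out they numbered 46 to 3604, and genes of the 10 called 0 to 4. The 4 were TNIP1, TNIP2, TNFAIP8 and ITCH, without siUXT TNF. That fit also gave the 3604 loci, of 11845 tested, so 4 of 10 is read against that number. Without siUXT PBS the called gene was TNFAIP2. Both fits leave 1 siUXT library, on which the siUXT change then rests, so no conclusion is drawn from these calls. The other brakes called for TNF numbered 1 with no filter, 2 (BCL3 lost) with a pseudocount of 0.1, size factors or eBayes without trend, and 3 to 8 with libraries left out. With libraries left out the receptor complex had 2 to 3, BIRC2 among them, and the paralogues 0 to 1. Of the 5 further TNF-related genes 0 were called with a minimum of 5 FPKM.

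Some changes took the other sign. For siUXT these were not all near 0, as TNFAIP8 was at -0.48 and TNFAIP2 at -0.41 with all libraries. With libraries left out the TNF change ranged over -0.0676 to 0.0982 for TNIP2 (0.0149 with size factors), -0.277 to 0.463 for TNFAIP8, -0.0875 to 0.260 for TAX1BP1 and -0.117 to 0.434 for ITCH. The siEZH1 change ranged over -0.0649 to 0.126 for TNFAIP3, -0.259 to 0.508 for TNFAIP8 and -0.166 to 0.508 for ITCH. The siUXT change ranged over -0.140 to 0.252 for CYLD, -0.773 to 0.361 for ZC3H12A, -0.181 to 0.475 for TAX1BP1, -1.20 to 0.248 for TNFAIP8 and -0.826 to 0.00298 for TNFAIP2. Both ends of each siUXT range come from fits with 1 siUXT library, where the change rests on that library. For TNFAIP8, siUXT minus NC was -1.19 with PBS and 0.23 with TNF on the log2 scale. Apart from fewer samples, the cause was not tested. The looser motif was in 14.0% of windows against 11.3%, and in 4 of the 10 genes, adding TNIP2. No paired analysis beyond the transfection term was possible because the labels give no replicate numbers.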

Other observations

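With TNFAIP2 left out, the summed FPKM of the other 9 genes was 98.2, 92.3 and 98.9 in the NC, siEZH1 and siUXT PBS libraries and 183, 165 and 179 with TNF. Against other A20 partners, TNFAIP3 stood at 0.0601, 0.0541 and 0.0597 times TAX1BP1 with PBS and at 2.28, 1.64 and 1.24 times with TNF, in NC, siEZH1 and siUXT. Against ITCH it stood at 0.0894, 0.0988 and 0.180 with PBS and at 3.71, 2.88 and 2.87 with TNF. Against RNF11, another A20 cofactor, it stood at 0.0448, 0.0377 and 0.0703 with PBS and at 1.49, 1.31 and 1.16 with TNF. TNFAIP3 was below each of these partners in every PBS library and above each of them in every TNF library.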
